A study of Rattus norvegicus with 65 samples.

Results

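The glycine receptor and glycine transporter genes were followed in the hypothalamus of 65 rats, sequenced as 1 RNA library per animal. The 7 genes are Glra1, Glra2, Glra3 and Glra4, which encode the alpha subunits of the receptor, Glrb, which encodes its beta subunit, Slc6a5, which encodes the neuronal glycine transporter GlyT2, and Slc6a9, which encodes the glial transporter GlyT1. They were chosen as a gene family, with earlier results of these data known and no threshold on their values. They are 7 of the 33452 genes with at least 1 count, and all 7 were among the 21871 genes tested. In the assembly of the counts, Rnor_6.0, they lie on chromosome 10 (Glra1, 40851955 to 40954364), chromosome X (Glra2, 30612894 to 30832078, and Glra4, 107416019 to 107447253), chromosome 16 (Glra3, 37676959 to 37908221), chromosome 2 (Glrb, 179768040 to 179842612), chromosome 1 (Slc6a5, 105270418 to 105336369) and chromosome 5 (Slc6a9, 136669674 to 136703702). Slc6a5 and Slc6a9 are on the plus strand and the others on the minus strand.

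All rats were male Wistar animals, 9–10 weeks old at the start. The obese groups ate a diet with 60% of its calories from fat for 6 weeks before treatment, and the hypothalamus was collected 4 weeks after treatment began, with 10 h of fasting before. RYGB animals (n = 14) had a Roux-en-Y gastric bypass, a small stomach pouch joined directly to the small intestine, and sham animals (n = 11) had the control operation. Body-weight-matched (BWM) animals (n = 7) had their food restricted so that their weight would follow that of the RYGB animals, and in the last week they were heavier. The study's abstract lists them as sham-operated too, while its methods name only the food restriction. The other treated groups chose freely between the high-fat diet and one with 10% of calories from fat. Of the infused groups, 1 received saline alone (n = 8), 1 received liraglutide, a GLP-1 receptor agonist, at 0.4 mg/kg/day (n = 5), 1 received the gut peptide PYY3-36 at 0.1 mg/kg/day by minipump (n = 4), and 1 received PYY3-36 + liraglutide (n = 10). A further 6 animals carried the label lean, of which the labels say no more. The study describes no lean group but does describe one given a low-fat diet only, whose weight was like that of the other groups when treatment began, and the sources used here do not say whether these are the same animals. The work was done in 2 periods, batch A (37 animals) and batch B (28 animals). RYGB animals were split 11 and 3 over batches A and B, sham animals 5 and 6, saline animals 3 and 5 and PYY3-36 + liraglutide animals 5 and 5. BWM and lean animals were in batch A only, and animals given PYY3-36 or liraglutide alone were in batch B only.

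Glycine is a fast inhibitory transmitter of brainstem and spinal cord and is also used in parts of the forebrain. It opens a chloride channel of 5 subunits, in which alpha subunits bind glycine and the beta subunit anchors the channel to gephyrin beneath the synapse. GlyT2 refills glycinergic nerve endings, and its mRNA sits mostly in cell bodies of brainstem and spinal cord. GlyT1, on glia, clears glycine from the extracellular space and also sets how much of it reaches NMDA receptors, which need glycine as a co-agonist.

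Promoter sequences are shown for Glra3 and Slc6a5, because these were the members that differed between RYGB and sham animals. The sequences are from RefSeq (assembly GRCr8, a later build than that of the counts), cover 250 bases before to 50 bases after the annotated start, and are read 5′ to 3′ on the gene's own strand. Of the 7 genes, 6 had an entry in the promoter table. Capitals mark matches on either strand to 1 of 6 motifs, which were the GC box GGGCGG, the CCAAT box CCAAT, the cAMP response element TGACGTCA, the AP-1 site TGAGTCA, the TATA box TATAAA and the E-box CANNTG.
Glra3, chr16:39856957-39857256, minus strand: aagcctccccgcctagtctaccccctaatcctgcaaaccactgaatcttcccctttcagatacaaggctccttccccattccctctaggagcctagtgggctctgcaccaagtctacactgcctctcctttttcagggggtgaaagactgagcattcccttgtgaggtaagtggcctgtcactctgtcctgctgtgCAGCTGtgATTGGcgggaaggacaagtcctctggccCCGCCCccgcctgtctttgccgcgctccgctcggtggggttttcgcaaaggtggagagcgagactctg
Slc6a5, chr1:108781303-108781602, plus strand: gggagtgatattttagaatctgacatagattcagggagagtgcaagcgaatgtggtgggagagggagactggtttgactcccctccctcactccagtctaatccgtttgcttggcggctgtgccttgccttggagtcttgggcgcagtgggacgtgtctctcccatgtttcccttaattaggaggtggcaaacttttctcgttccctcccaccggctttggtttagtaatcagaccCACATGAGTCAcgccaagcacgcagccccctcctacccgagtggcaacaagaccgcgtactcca

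The Glra3 window held 58.0% G and C, with a GC box, a CCAAT box read on the other strand (ATTGG) and an E-box (CAGCTG) whose first bases lay at -18, -46 and -54 from the start. The Slc6a5 window held 54.3% G and C, with an E-box (CACATG) at -14 that shared 2 bases with an AP-1 site at -10. Over all 33469 promoters in the table, the median share of G and C was 51.7%. A GC box was found in 33.1% of them, a CCAAT box in 37.5%, a cAMP response element in 1.83%, an AP-1 site in 4.63%, a TATA box in 14.2% and an E-box in 72.1%. The AP-1 site of Slc6a5 was the only one in the windows of the 6 members. A match to these letters is a description of the window and not evidence that a factor binds there.

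Library totals ran from 20041010 to 36539941 counts. Some libraries stood apart in their tissue markers before any group was compared. The summed level of 17 hypothalamus markers, among them Agrp, Pomc, Oxt, Avp and Hcrt, was at most 202.7 CPM (counts scaled to a library of equal size, as TMM-scaled CPM) in 12 libraries and at least 459.5 CPM in the other 53. The 12 were sham replicates 2, 6 and 10, saline replicates 3 and 4, lean replicates 2 and 5, liraglutide replicates 3 and 4, BWM replicate 1, PYY3-36 replicate 2 and PYY3-36 + liraglutide replicate 8, and none was a RYGB library. Of the hypothalamus markers, Pmch had the highest median over all libraries, 563 CPM, followed by Oxt at 407 and Avp at 282 CPM. These weigh most in a typical sum, while Agrp had a median of 0.95 CPM. In sham replicate 3 the summed level of hindbrain and spinal cord markers was 73.7 CPM, against at most 3.66 CPM in every other library, and in BWM replicate 5 anterior pituitary markers summed to 76953 CPM. Between RYGB and sham, 4 of the 6 tested midbrain and raphe markers were higher (median log2 fold change over the list 2.36), as were 1 of 7 choroid plexus and 1 of 5 microglia markers, where 13% of all genes passed, and no gene passed in the other 11 marker lists tested. Between BWM and sham, 5 of 11 anterior pituitary and 2 of 7 choroid plexus markers were higher, where 0.32% of all genes passed, and none passed in the other 12 lists. The part these differences in tissue played in the results was not tested, and fewer cells of a type cannot be told apart from less RNA per cell in such samples.

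Compared per length of annotated exon, mRNA of the transporter Slc6a9 was the most abundant of the 7 genes, at 55.1 ± 11.7 CPM per kilobase (SD, n = 65). Glrb followed at 31.1 ± 8.97 CPM per kilobase. Of the alpha subunits, Glra2 was at 6.12 ± 2.18, Glra1 at 1.53 ± 0.897, Glra3 at 0.979 ± 0.767 and Glra4 at 0.207 ± 0.107 CPM per kilobase, while Slc6a5 was at 0.622 ± 0.285. Glra2 was the highest of the 4 alpha subunits in 65 of 65 libraries. These levels depend on the annotated exon lengths, which ran from 1305 bases for Glra3 to 15693 bases for Glra4. Glra3 was also the gene with the fewest reads, with 0 to 126 counts per library.

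The makeup of the alpha-subunit mRNA differed between groups in its Glra3 share, which was lowest in sham animals. In sham animals Glra3 made up 2.59 ± 2.098% (SD, n = 11) of the summed alpha-subunit CPM per kilobase, with a range from 0.0% to 6.71%. In RYGB animals its share was 14.9 ± 4.96% (SD, n = 14), between 5.23% and 23.1%. The Glra2 share was 79.5 ± 12.9% in sham and 60.9 ± 7.52% in RYGB animals, and the Glra1 share 14.7 ± 12.95% and 21.99 ± 4.23%. Shares of 1 whole move against each other, so they are given as a description with no test.

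**Figure D1:**
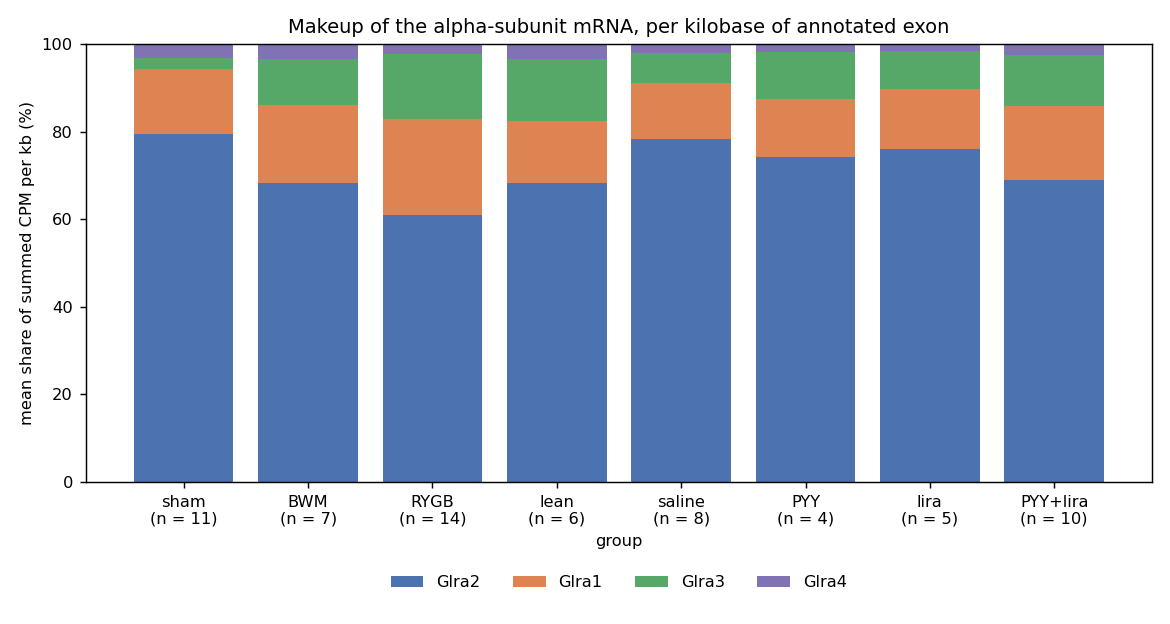
Mean share of each alpha subunit in the summed CPM per kilobase of the 4 alpha subunits (y axis, %) in the 8 groups (x axis, with the number of libraries). Glra2 takes the largest share in every group, and the Glra3 share is 2.59% in sham and 14.9% in RYGB animals.

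Glra3, the alpha3 subunit, was the member that differed most between RYGB and sham animals. In sham animals of batch A its 5 libraries held 0.0661, 0.145, 0.210, 0.291 and 0.755 CPM, and in batch B the 6 libraries ran from 0.0 CPM through a median of 0.126 to 0.707 CPM. Sham replicate 6 held 0 counts, which at its total of 20041010 allows a level of up to 0.15 CPM, for counting error only. In RYGB animals of batch A the 11 libraries ran from 0.359 CPM through a median of 1.94 to 4.05 CPM, and in batch B they held 1.62, 1.80 and 1.960 CPM. All 14 RYGB libraries lay above the median of the sham libraries and 12 of 14 above the highest sham library, so the groups overlapped in batch A and did not overlap in batch B. In batch B, 2 of the 7 members (Glra3 and Glra1) had no overlap between RYGB and sham libraries, against 15.8% of all genes tested.

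The fitted difference of Glra3 between RYGB and sham animals was 2.79 ± 0.48 on the log2 scale (SE; 6.90-fold; adjusted p = 0.000654, edgeR's quasi-likelihood test). Taken within batch A alone it was 2.79 ± 0.63 (adjusted p = 0.00787), within batch B alone 3.09 ± 0.73 (adjusted p = 0.0219), and the difference between the batches was 0.30 ± 0.93 (adjusted p = 0.948). Without the 12 libraries low in hypothalamus markers it was 2.51 (adjusted p = 0.00809). Midbrain and raphe markers were higher in the same comparison, with a summed level of 12.02 to 437 CPM in RYGB and 4.26 to 33.5 CPM in sham animals of batch A, and of 38.6 to 300 and 3.24 to 36.8 CPM in batch B. Th had the highest median of that list over all libraries, 22.0 CPM, and Tph2 the next, 1.13 CPM, so Th weighs most in a typical sum. The part of these markers in the Glra3 difference was not tested. Leaving out each RYGB or sham library in turn kept the adjusted p of Glra3 under 0.05 in all 25 fits. It was also the single member that passed the test of any difference among the 8 groups (adjusted p = 0.00574), which 3.76% of all genes passed.

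Of the 7 members, 2 passed the test between RYGB and sham animals, Glra3 and Slc6a5, both higher after RYGB. Of all genes 13% passed (1425 higher and 1428 lower). Within batch A the same 2 members passed, against 8.64% of all genes, and within batch B 1 of 7 passed (Glra3), against 2.74%. None of the 7 differences changed between the batches by the test of the interaction, which 0.0% of all genes passed (2268 genes and 1 member, Slc6a5, at an unadjusted p under 0.05).

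**Figure D2:**
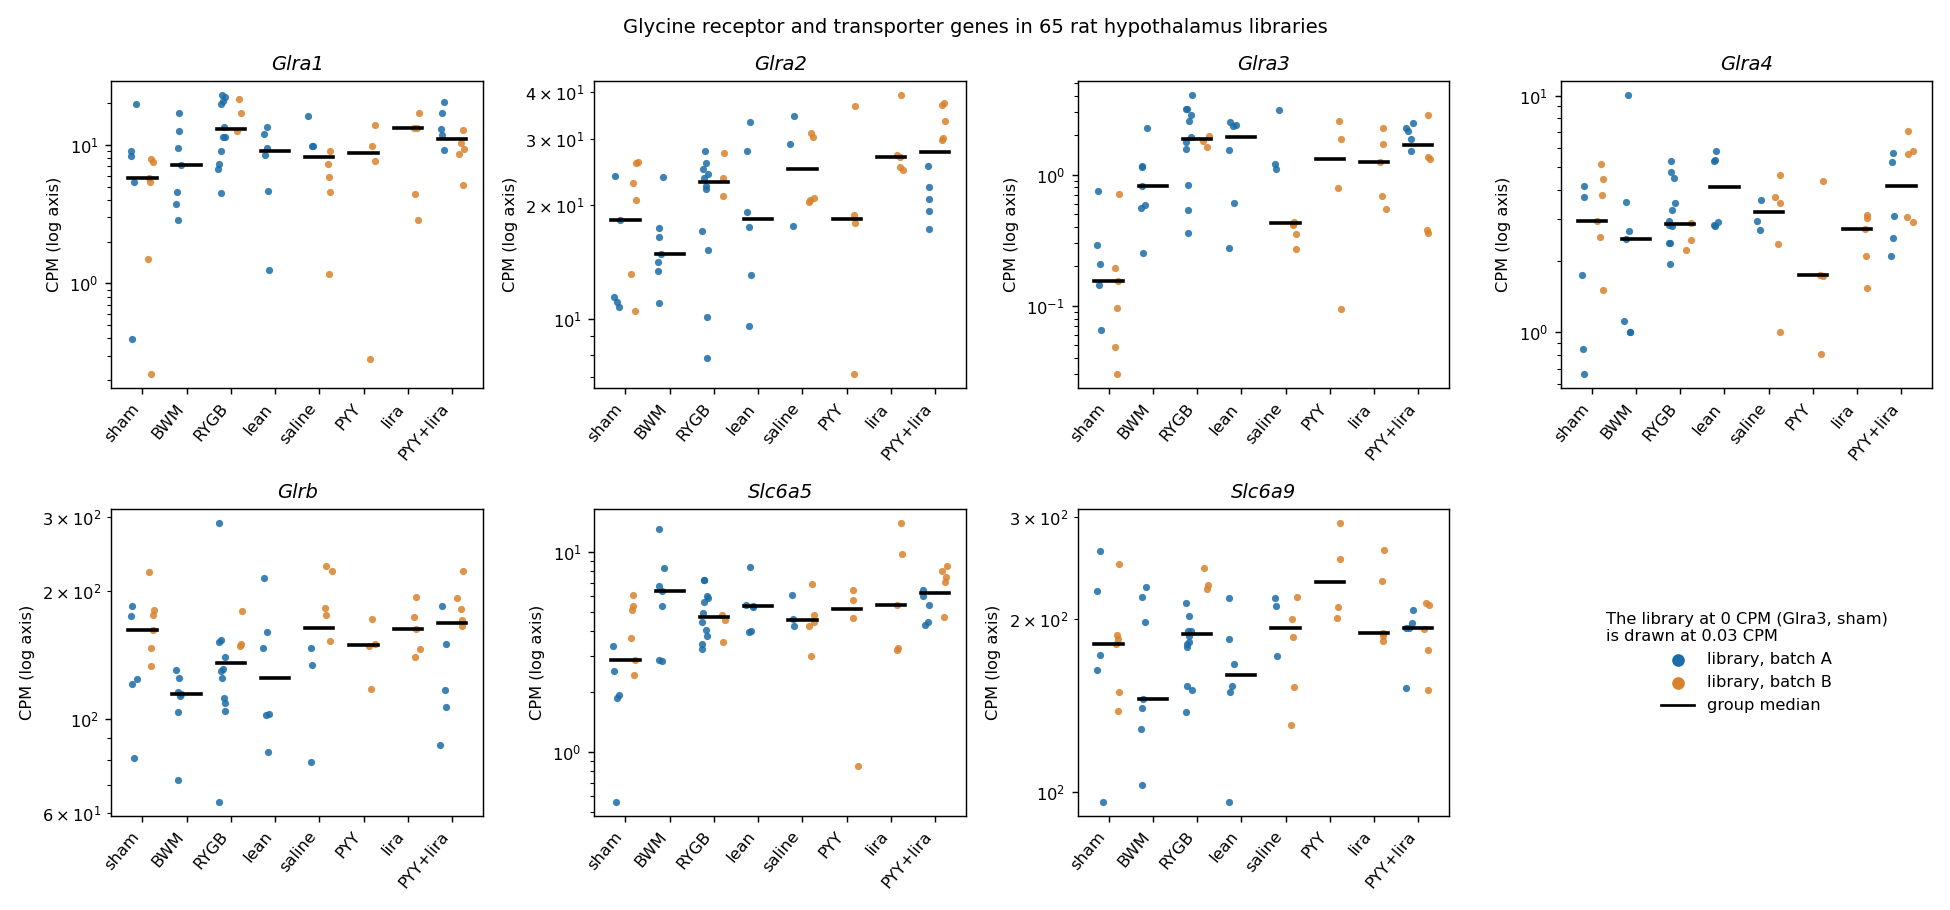
CPM of each gene (y axis, log scale) in each of the 65 libraries, by group (x axis); points are libraries in batch A (blue) or batch B (orange) and black bars are group medians. Glra3 has a median of 0.155 CPM in sham and 1.87 CPM in RYGB animals, while the RYGB and sham libraries overlap for Glrb and Slc6a9.

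Glra1, the alpha1 subunit of most adult brainstem and spinal glycine receptors, ran from 0.219 to 19.6 CPM in sham animals with a median of 5.72 CPM. In RYGB animals it ran from 4.52 to 22.9 CPM with a median of 13.1 CPM, and 13 of 14 RYGB libraries lay above the sham median. The fitted difference was 1.06 ± 0.42 on the log2 scale and did not pass (adjusted p = 0.0753). In batch A it was 0.67 ± 0.56 (adjusted p = 0.470). In batch B the RYGB libraries held 12.6, 16.97 and 21.3 CPM and the 6 sham libraries 0.219 to 7.96 CPM, a difference of 1.84 ± 0.68 (adjusted p = 0.104).

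The lowest and the highest sham levels of Glra1 were in libraries that stood apart. Sham replicates 2, 6 and 10, low in hypothalamus markers, held 0.396, 0.219 and 1.503 CPM, and sham replicate 3, with the hindbrain markers, held 19.6 CPM. Without sham replicate 3 the difference between RYGB and sham was 1.36 (adjusted p = 0.0366), and without RYGB replicate 11 it was 1.12 (adjusted p = 0.0482). Without the 12 libraries low in hypothalamus markers it was 0.68 (adjusted p = 0.115). In other groups, too, Glra1 was low in some of these libraries, with 0.285 CPM in PYY3-36 replicate 2, 1.18 CPM in saline replicate 4 and 1.25 CPM in lean replicate 2. It was not low in all of them, since saline replicate 3 held 9.73 CPM and lean replicate 5 held 8.46 CPM. Over the 65 libraries, after the mean of each group and batch was subtracted, Glra1 followed the summed hypothalamus markers with a Pearson r of 0.698, against 0.226 for Glra3 and 0.204 for Slc6a5 (a description over libraries that share dissection and depth). Glra1 followed the other glycine transporters about as closely, with 0.707. Glra1, Glra3 and Slc6a5 all went against some other tissue markers. With the oligodendrocyte markers Glra3 and Slc6a5 were at -0.463 and -0.476, and Glra1 was at -0.199. With the neuron markers Glra1 was at -0.408, Glra3 at -0.397 and Slc6a5 at -0.212. With the cortex markers they were at -0.532, -0.355 and -0.312, in the same order.

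**Figure D3:**
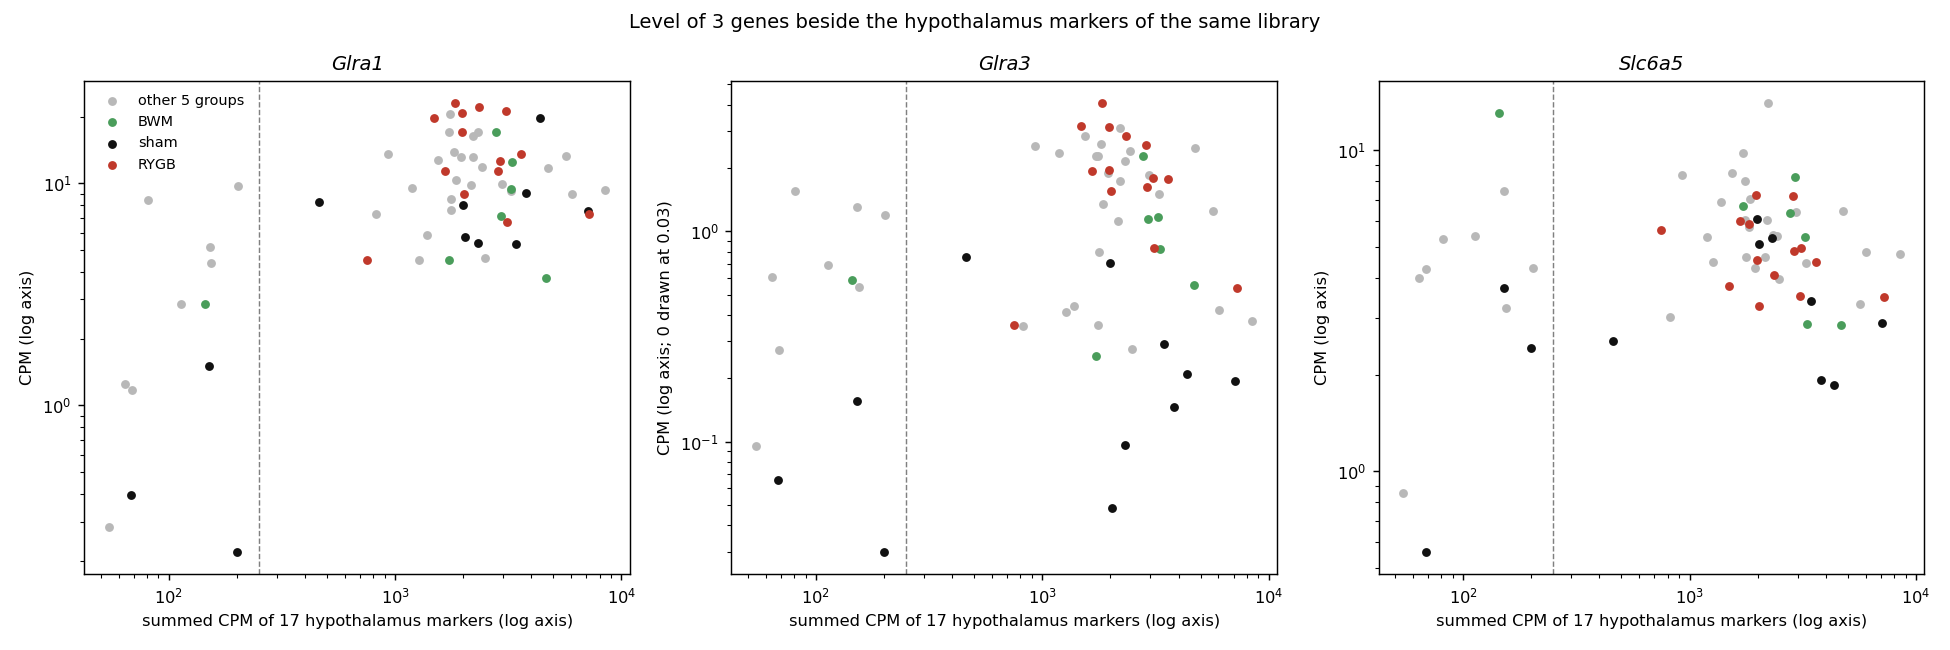
CPM of Glra1, Glra3 and Slc6a5 (y axes, log scale) against the summed CPM of 17 hypothalamus markers in the same library (x axis, log scale); points are the 65 libraries and the dashed line is at 250 CPM. The 12 libraries left of the line include 3 sham and 0 RYGB libraries; the lowest Glra1 values sit there, while 8 of the 11 sham libraries lie to the right of the line.

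Glra2, the alpha2 subunit of immature and some adult forebrain receptors, ran from 10.5 to 26.1 CPM in sham animals (median 18.3 CPM) and from 7.86 to 27.8 CPM in RYGB animals (median 23.0 CPM). The ranges overlapped, and the difference was 0.36 ± 0.20 on the log2 scale (95% interval -0.0321 to 0.755, adjusted p = 0.219). Glra4, the alpha4 subunit, ran from 0.661 to 5.12 CPM in sham and from 1.94 to 5.27 CPM in RYGB animals, a difference of 0.23 ± 0.32 (adjusted p = 0.652). Within batch A alone it was at 0.58 ± 0.41 and within batch B alone at -0.43 ± 0.53 (adjusted p = 0.374 and 0.689).

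Glrb, the beta subunit that ties the receptor to the synapse, ran from 81.0 to 223 CPM in sham animals and from 63.6 to 290 CPM in RYGB animals. The difference was 0.02 ± 0.15 on the log2 scale, with a 95% interval from -0.285 to 0.322 (adjusted p = 0.949). The library at 290 CPM was RYGB replicate 6, which also had the highest summed neuron markers (6408 CPM) and the lowest Glra1, Glra2, Glra3 and Glra4 levels of the 14 RYGB animals. Over all libraries Glrb followed the summed neuron markers with an r of 0.792, again after group and batch means were subtracted.

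Slc6a5, the neuronal transporter GlyT2, passed as higher in RYGB than in sham animals of batch A and did not pass in batch B. In batch A the sham libraries held 0.562, 1.85, 1.93, 2.55 and 3.39 CPM, and the 11 RYGB libraries ran from 3.26 CPM through a median of 4.95 to 7.23 CPM, with 10 of 11 above the highest sham library. In batch B the RYGB libraries held 3.52, 4.55 and 4.85 CPM and lay within the range of the 6 sham libraries, 2.41 to 6.10 CPM. The fitted difference was 0.77 ± 0.27 over both batches (1.70-fold; adjusted p = 0.0492), 1.31 ± 0.34 in batch A (adjusted p = 0.0159) and 0.01 ± 0.42 in batch B (adjusted p = 0.991). The difference between the batches was -1.29 ± 0.55 and did not pass (adjusted p = 0.372). The saline and lean libraries of batch A also lay above sham, with the 3 saline libraries at 4.28 to 6.06 CPM and the 6 lean libraries at 3.97 to 8.38 CPM, none of which overlapped with sham, as 8.26% and 0.837% of all genes did not. Sham was at -1.28 ± 0.43 against saline in batch A (adjusted p = 0.220). RYGB animals set against saline in batch A were at 0.03 ± 0.38 (95% interval -0.728 to 0.780, adjusted p = 1.0). The 1.31 found against sham had a 95% interval of 0.634 to 1.98, and the 2 intervals overlap. Without the 12 libraries low in hypothalamus markers the difference was 0.57 (adjusted p = 0.125). The call was lost in 17 of 25 fits that left out 1 library, which were RYGB replicates 1, 3, 4, 7, 8, 9, 10, 12 and 14 and sham replicates 1, 2, 3, 4, 5, 6, 9 and 10. The adjusted p was at most 0.116, in the fit without sham replicate 2, where the log2 fold change was 0.61. The hindbrain markers of sham replicate 3 did not go with Slc6a5, which was at 1.85 CPM there.

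Slc6a9, the glial transporter GlyT1, ran from 96.0 to 262 CPM in sham animals and from 138 to 245 CPM in RYGB animals. Over both batches the difference was 0.08 ± 0.13 on the log2 scale (95% interval -0.166 to 0.324, adjusted p = 0.705). The 0.769 fitted for Slc6a5 over both batches lay outside that interval. Within batch A alone Slc6a9 was at -0.04 ± 0.16 (edgeR, adjusted p = 0.913). Within batch B alone it was at 0.36 ± 0.21 (edgeR, adjusted p = 0.310), with an interval of -0.0489 to 0.7705. After group and batch means were subtracted, Slc6a9 followed the other glycine transporters with an r of 0.533, the oligodendrocyte markers with 0.492, the hypothalamus markers with 0.448 and the astrocyte markers with 0.374, and it went against the striatum markers with -0.418.

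**Figure D4:**
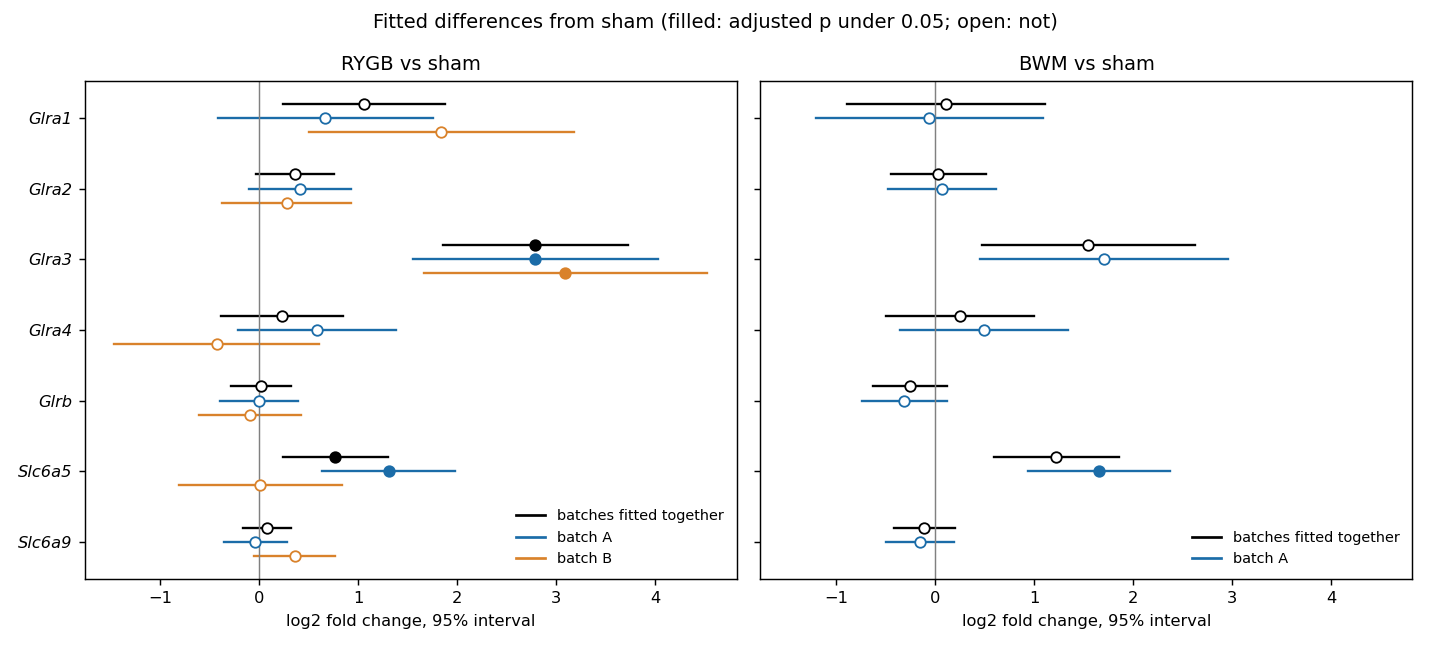
Log2 fold change of each gene (x axis, with its 95% interval) in RYGB (left) and BWM animals (right) against sham, fitted over both batches (black) or within batch A (blue) or batch B (orange); filled points have an adjusted p under 0.05. Glra3 is at 2.79, 2.79 and 3.09 in RYGB animals, while Slc6a5 is at 1.31 in batch A and 0.01 in batch B.

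Food restriction gave 0 calls among the 7 members between BWM and sham animals (edgeR; 2 at an unadjusted p under 0.05; DESeq2 called 1), where 0.32% of all genes passed. Glra3 ran from 0.254 CPM through a median of 0.823 to 2.27 CPM in the 7 BWM libraries, and all 7 lay above the sham median. Its difference was 1.55 ± 0.55 on the log2 scale (adjusted p = 0.194). Slc6a5 ran from 2.86 CPM through a median of 6.37 to 13.01 CPM, a difference of 1.23 ± 0.32 (adjusted p = 0.0700). Since BWM animals were in batch A only, the comparison within batch A is the one in which period and group are not mixed. There 1 of 7 members passed, Slc6a5 at 1.66 ± 0.37 (adjusted p = 0.00717), against 5.28% of all genes, and Glra3 was at 1.70 ± 0.64 (adjusted p = 0.105). The highest Slc6a5 and Glra4 values of the BWM animals, 13.01 and 10.1 CPM, were both in BWM replicate 1, in which hypothalamus markers summed to 145 CPM and striatum markers to 4138 CPM. Without the 12 libraries low in hypothalamus markers, Slc6a5 was at 0.74 (adjusted p = 0.226) and Glra4 at -0.56 (adjusted p = 0.482) in place of 0.25 ± 0.38. Without BWM replicate 6 or sham replicate 11 the Slc6a5 call was gained (1.33 and 1.28, adjusted p = 0.0450 and 0.0425).

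RYGB and BWM animals gave 0 calls among the 7 members when set against each other (edgeR; 1 at an unadjusted p under 0.05, DESeq2 called 0), where 0.343% of all genes passed. Glra3 was 1.24 ± 0.49 higher in RYGB animals on the log2 scale (adjusted p = 0.317) and Glra1 0.95 ± 0.49 higher (adjusted p = 0.411), with Slc6a5 at -0.46 ± 0.28 (adjusted p = 0.479). Within batch A, to which the BWM animals belong, Glra3 was 1.09 ± 0.49 higher (adjusted p = 0.550) and 0 of 7 passed (1 at an unadjusted p under 0.05), against 0.197% of all genes. Comparisons with sham share the same sham libraries, so the RYGB and BWM differences from sham are not independent of each other.

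Lean animals held 0.275 to 2.54 CPM of Glra3 with a median of 1.95 CPM, and all 6 lay above the sham median. The difference from sham was 2.28 ± 0.56 (adjusted p = 0.151), and 0 of 7 members passed (2 at an unadjusted p under 0.05, DESeq2 called 1), as did 0.0% of all genes (2674 at an unadjusted p under 0.05, 29 by DESeq2). Within batch A, to which the lean animals belong, 0 of 7 passed (3 at an unadjusted p under 0.05), against 0.0686% of all genes, with Glra3 at 2.43 ± 0.66 and Slc6a5 at 1.39 ± 0.37 (both adjusted p = 0.078). Without lean replicate 6 or sham replicate 1 the Glra3 call was gained (2.4997 and 2.60, adjusted p = 0.0156 and 0.0208).

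The second control group, saline, did not share the low Glra3 level in batch A. Its 3 libraries there held 1.11, 1.20 and 3.09 CPM, above the highest sham library of batch A, and its 5 libraries in batch B held 0.271, 0.355, 0.412, 0.424 and 0.439 CPM, within the range of sham in that batch. Glra3 was -1.77 ± 0.51 in sham against saline (adjusted p = 0.215), and -2.59 ± 0.73 in batch A and -0.87 ± 0.71 in batch B (adjusted p = 0.170 and 0.687). Of the 7 members, 0 passed between sham and saline (3 at an unadjusted p under 0.05, DESeq2 called 0), against 0.0137% of all genes. Within batch A 0 passed (3 at an unadjusted p under 0.05), as did 0.0% of all genes (3126 at an unadjusted p under 0.05), and within batch B 0 passed (0 at an unadjusted p under 0.05), against 0.0229% of all genes. Without sham replicate 1 Glra3 passed (-2.05, adjusted p = 0.0477). The difference of sham against saline between the batches passed for 0 members and 0.00457% of all genes (1 member at an unadjusted p under 0.05). Set against saline instead of sham, RYGB animals showed no call (0 of 7, 1 at an unadjusted p under 0.05, DESeq2 called 0, against 0.00457% of all genes), with Glra3 at 1.02 ± 0.46 (adjusted p = 1.0) over both batches, 0.20 ± 0.64 in batch A and 2.22 ± 0.74 in batch B (adjusted p = 1.0 and 0.421). In batch B all 3 RYGB libraries lay above all 5 saline libraries for Glra3, and 3 of 7 members had no overlap there, against 14.1% of all genes. BWM animals against saline also gave 0 of 7 (0 at an unadjusted p under 0.05, DESeq2 called 0, against 0.0412% of all genes), with Glra3 at -0.22 ± 0.54. Within batch A it was at -0.88 ± 0.65 (adjusted p = 0.844), and 0 of 7 passed (1 at an unadjusted p under 0.05, Glra2 at -0.77 ± 0.32), as did 0.0% of all genes (1219 at an unadjusted p under 0.05).

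The hormone treatments were compared with saline, and 0 of 7 members passed in each comparison fitted over both batches, with 0 members at an unadjusted p under 0.05 and 0 called by DESeq2. Of all genes 0.0% passed for PYY3-36 (1649 at an unadjusted p under 0.05), 0.0% for liraglutide (456) and 0.00457% for PYY3-36 + liraglutide. Glra3 was at 1.07 ± 0.64 for PYY3-36, 1.03 ± 0.61 for liraglutide and 0.91 ± 0.49 for the combination, with adjusted p = 0.664, 1.0 and 1.0. Animals given PYY3-36 or liraglutide alone were in batch B, and there Glra3 was at 1.80 ± 0.70 for PYY3-36 (3.49-fold), 1.77 ± 0.67 for liraglutide (3.41-fold) and 1.71 ± 0.67 for the combination (3.26-fold), with adjusted p = 0.471, 1.0 and 0.834. Within batch B 0 of 7 members passed in each of these comparisons, against 0.00457%, 0.00914% and 0.0137% of all genes, with 2 members at an unadjusted p under 0.05 for PYY3-36 (Glra3 and Slc6a9, the latter at 0.43 ± 0.20) and 1, Glra3, for liraglutide and for the combination. The 5 liraglutide libraries held 0.544 to 2.27 CPM of Glra3, above all 5 saline libraries of that batch (0.271 to 0.439 CPM), where 0.846% of all genes had no overlap. The PYY3-36 libraries ran from 0.0949 to 2.58 CPM and overlapped with saline, as did the combination in batch B at 0.357 to 2.84 CPM. In batch A Glra3 was at 0.19 ± 0.71 for the combination (adjusted p = 1.0). For the combination, the interaction test of the difference from saline between the batches passed for 0 members (edgeR, 0 at an unadjusted p under 0.05), which 0.0% of all genes passed. PYY3-36 replicate 2 held the lowest Glra1, Glra2, Glra3, Glra4, Glrb and Slc6a5 and the highest Slc6a9 of its group, at 0.285, 7.12, 0.0949, 0.806, 117, 0.854 and 294 CPM.

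The same hormone groups were also set against sham, a comparison chosen after the data were seen. Glra3 was then higher in all 3, at 2.84 ± 0.60 for PYY3-36 (adjusted p = 0.00833), 2.80 ± 0.58 for liraglutide (adjusted p = 0.0248) and 2.68 ± 0.49 for the combination (adjusted p = 0.00101). That was 1 of 7 members for PYY3-36 and for liraglutide, where 8.35% and 0.096% of all genes passed. For the combination 3 of 7 passed, against 14.7% of all genes, the others being Slc6a5 at 0.99 ± 0.27 (adjusted p = 0.0111) and Glra2 at 0.62 ± 0.21 (adjusted p = 0.0333). These share the sham libraries with the RYGB comparison.

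Ordered by level with the batch fitted, sham was the lowest of the 8 groups for Glra1, Glra2, Glra3 and Slc6a5. The order for Glra3 ran from PYY3-36, liraglutide, RYGB and PYY3-36 + liraglutide, at 0.75, 0.71, 0.70 and 0.59 around the mean, through lean, saline and BWM to sham. No step between neighbours in this order passed for any of the 7 genes, and the widest step was that of Glra3 from BWM to sham (1.55, adjusted p = 0.194). RYGB was the highest group for Glra1, PYY3-36 + liraglutide for Glra2, PYY3-36 for Glra3 and Slc6a9, lean for Glra4 and Glrb, and BWM for Slc6a5. Glrb and Slc6a9 varied least, between -0.20 and 0.10 and between -0.20 and 0.31 around their means on the log2 scale.

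**Figure D5:**
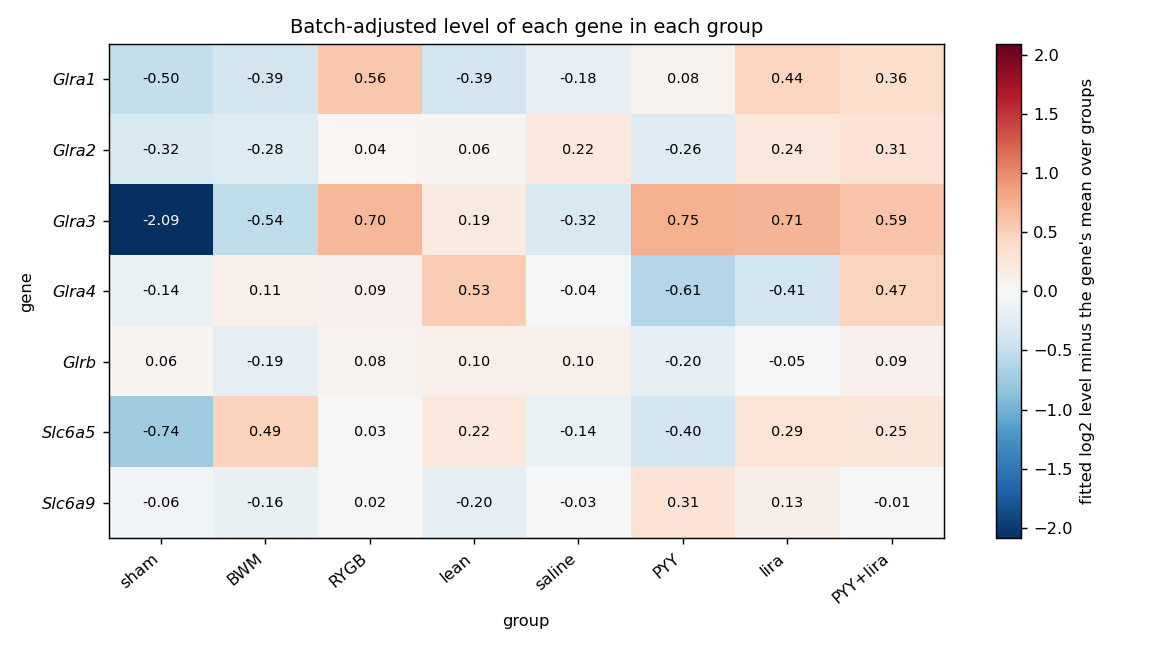
Fitted log2 level of each gene (rows) in each group (columns), adjusted for batch and given relative to the gene's mean over the 8 groups; red is higher and blue lower. Glra3 spans -2.09 in sham to 0.75 in PYY3-36 animals, and Glrb stays between -0.20 and 0.10. PYY3-36 and liraglutide animals were in batch B only and BWM and lean animals in batch A only. Their levels here rest on the fitted batch difference.

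Between the batches, with the group fitted, 2 of 7 members differed, against 40.7% of all genes. Glrb was 0.42 ± 0.12 higher in batch B (adjusted p = 0.00422) and Glra3 0.83 ± 0.34 lower (log2 fold change -0.83, adjusted p = 0.0414). The Glra3 call was lost in 17 of 65 fits that left out 1 library.

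Of 23 other genes that handle or sense glycine, 3 passed between RYGB and sham animals, beside 13% of all genes. Of 7 partners at the glycine synapse, 1 rose, Nlgn2, an adhesion protein of inhibitory synapses (0.52 ± 0.14, adjusted p = 0.0132). Of 4 genes for glycine at NMDA receptors, 1 rose, Grin3a, a glycine-binding subunit (1.05 ± 0.31, adjusted p = 0.0209). Of 9 genes of glycine synthesis and cleavage, 1 fell, Psph, an enzyme of serine synthesis (-0.31 ± 0.08, adjusted p = 0.00684). Of 3 other glycine transporters tested, 0 passed (1 at an unadjusted p under 0.05). The median log2 fold change was 0.08, 0.01, -0.08 and -0.10 in these lists, beside -0.02 over all genes. Between BWM and sham animals 0 of these 23 genes passed (edgeR, 0 at an unadjusted p under 0.05), beside 0.32% of all genes, and the medians were -0.03, -0.02, -0.08 and 0.22.

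Members varied together from library to library in different ways. After the mean of each group and batch was subtracted, the Pearson r over 65 libraries was 0.675 between Glra1 and Glra3, 0.670 between Glra1 and Glra2 and 0.636 between Glra2 and Glra3, while Glrb stayed between -0.0656 and 0.118 with the other 6 genes. The libraries share dissection, depth and tissue makeup, so these values are descriptions. Among 17233 genes with a mean of at least 1 CPM, the genes most like Glra1 were Btbd11, Peg3 and Akap12 (r = 0.896, 0.881 and 0.876). For Glra2 they were Usp29, Zscan18 and Pak3 (0.818, 0.789 and 0.786), and for Glra3 Ahi1, FAM120C and Peg10 (0.840, 0.821 and 0.821). Glra4 was closest to Asic1, Gpr149 and A2ml1 (0.756, 0.729 and 0.707). Glrb was closest to Dld, Fgf12 and Hecw1 (0.914, 0.886 and 0.879), and Slc6a9 to Padi2, Gprc5b and Sema6a (0.890, 0.863 and 0.784). Slc6a5 had no partner as close, with LOC100911832, Pcdh11x and Trim66 at 0.616, 0.600 and 0.597.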

How the data were processed

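Hypothalamic RNA of 65 rats was sequenced from poly-A-selected, stranded libraries. Per the study's methods and the submitters' processing notes, the authors trimmed reads with cutadapt (1.16 in the notes, with later versions also named in the methods), aligned them to Rnor_6.0 with STAR 2.7.2b and counted them over RefSeq exons with featureCounts 1.6.4, strand by strand, with multi-mapping and overlapping reads split into fractions. What the authors deposited are estimated counts per gene, of which many are not whole (30.3% of nonzero values, at a tolerance of 1e-06), and they were rounded here. Genes whose reads were split into fractions are uncertain for that reason, with fractional values in 48 libraries for Glrb, 43 for Glra2 and 28 for Glra3. Which other places in the genome shared these reads was not tested. The exon length is the deposited one.

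Counts were scaled by TMM and filtered with filterByExpr (minimum count 10, minimum total 15), and edgeR 4.0.16 (limma 3.58.1, R 4.3.3) fitted a robust quasi-likelihood model with group and batch over all 65 libraries. Values within a batch and the differences between batches came from a model with a mean for each group and batch. P-values were adjusted by Benjamini-Hochberg over all genes tested and called under 0.05, and errors of fitted values are standard errors. The scripts were tested on simulated data. DESeq2 1.42.0 was an alternative test. No library pair of a group agreed within sampling noise (168 pairs, lowest chi-square per degree of freedom 14.2). The 7 genes were named whatever their values, other glycine genes where they passed between RYGB or BWM and sham, and for each of the 7 the 3 genes most like it in log2 CPM (pseudocount 1). The members and lists were chosen with earlier results of these data known. The 95% intervals of fitted differences include the spread between animals, and the limit given for a count of 0 covers counting error only. The replicate numbers of the labels name different animals. Deviations of same-numbered libraries from their group means went together only for liraglutide and saline (correlation 0.321 to 0.611 over 5 pairs, each library best with its own number), and a replicate block changed no call there. Saline replicates 1, 2 and 3 were in batch A and all liraglutide animals in batch B, so those numbers do not share a period. Replicates 3 and 4 of both groups were among the 12 libraries low in hypothalamus markers. The numbers were not taken to pair animals in any comparison.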

Additional observations from a re-analysis of the deposited data

Results flagged for a closer look

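In 42 sets of 4 to 10 libraries of 1 group, the gap between the highest or lowest library and its nearest neighbour was compared with the range of the group, a rule that chance alone meets in about 1 of 20 sets, and 4 sets met it. Glra2 was at 39.2 CPM in liraglutide replicate 5, where the next library was at 27.2 CPM. Glra3 was at 3.09 CPM in saline replicate 2, where the next was at 1.20 CPM, and this library belongs to batch A, in which all 3 saline libraries lay above the 5 of batch B. Glra4 was at 10.1 CPM in BWM replicate 1, where the next was at 3.56 CPM, the library with 145 CPM of hypothalamus markers and 4138 CPM of striatum markers. Slc6a5 was at 8.38 CPM in lean replicate 1, where the next was at 5.40 CPM. None of the 21 tests of a difference between the batches passed for a member.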

How the results depend on the processing

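Glra3 kept its direction and its call between RYGB and sham under every alternative run, with a log2 fold change of 2.64 to 3.17 when 1 library was left out. Calls of other members moved. Of the 7 members, 1 was called between RYGB and sham without the filter on low counts (Slc6a5 0.79, adjusted p = 0.0625), 1 without the 12 libraries low in hypothalamus markers, 1 within batch B, and 1 to 3 when 1 library was left out, and without a batch term Glra1 (1.14, adjusted p = 0.0379) was called and Slc6a5 (0.60, adjusted p = 0.0735) was not. Between BWM and sham, where 0 were called, DESeq2 called 1 (Slc6a5, adjusted p = 0.0233), the fit without a batch term 2 (Glra3 1.95 and Slc6a5 0.998, adjusted p = 0.0183 and 0.0269), the fit within batch A 1, and leaving out 1 library 0 to 1. Between lean and sham DESeq2 called 1 (Glra3, adjusted p = 0.0495), the fit without a batch term 1 (Glra3 2.68, adjusted p = 0.00965) and leaving out 1 library 0 to 1, which was also the range for sham against saline. Between the batches it was 1 to 2. With sham in place of saline, 1 member was called for PYY3-36, 1 for liraglutide and 3 for the combination. Over all genes, the 2853 calls between RYGB and sham were 5587 without a batch term, 1618 with the replicate block, 1177 without the 12 libraries, 1889 within batch A and 599 within batch B. The 70 between BWM and sham were 2183 without a batch term, 1154 within batch A, 237 with DESeq2, 1 with the replicate block and 0 with only those groups fitted. The 75 between RYGB and BWM were 122 without the 12 libraries, 43 within batch A and 0 with the block or only those groups, and the 0 between lean and sham were 2339 without a batch term, 29 with DESeq2 and 15 within batch A. Against saline, where 0 to 9 genes were called, the highest count with saline kept as the control was 122, for BWM without a batch term. The causes of these changes were not tested. Leaving out the 12 libraries and setting hormone groups against sham were chosen after seeing the data. Fitted alone with saline, Glra3 in sham did not pass the filter and gave no value.

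The replicate block left the count of members called at 2 between RYGB and sham and at 0 in each of the other 9 comparisons of groups. Except between liraglutide and saline, same-numbered libraries had a lowest correlation of their deviations between -0.554 and -0.127 in each comparison. In none of those did every library go best with its own number.

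All sign changes below were of differences that passed no test with all libraries.
With DESeq2, the sign turned in RYGB against BWM (Glra4 0.0037). With DESeq2's size factors in edgeR, the sign turned in RYGB against BWM (Glra4 0.0035). Without the 12 libraries low in hypothalamus markers, the sign turned in RYGB against sham (Glrb -0.056, Slc6a9 -0.039), BWM against sham (Glra1 -0.069, Glra2 -0.053, Glra4 -0.56), RYGB against BWM (Glra4 0.66), lean against sham (Glrb -0.34), sham against saline (Glrb 0.14, Slc6a9 0.083), RYGB against saline (Glrb 0.086), BWM against saline (Glra4 -0.63), PYY3-36 against saline (Slc6a5 0.071), PYY3-36 + liraglutide against saline (Glrb 0.093). Without a batch term, the sign turned in RYGB against sham (Glrb -0.13), BWM against sham (Glra2 -0.16), RYGB against BWM (Glra4 0.012), lean against sham (Glrb -0.20), BWM against saline (Glra1 0.037, Glra3 0.071), PYY3-36 against saline (Glra1 -0.011). Without the filter on low counts, the sign turned in RYGB against BWM (Glra4 0.0040), PYY3-36 + liraglutide against saline (Glrb 0.0033). With only the libraries compared in the fit, the sign turned in RYGB against sham (Glrb -0.028), BWM against sham (Glra1 -0.054), RYGB against BWM (Glra4 0.11), lean against sham (Glra1 -0.077, Glrb -0.043), RYGB against saline (Glra4 -0.049, Slc6a5 -0.029), PYY3-36 + liraglutide against saline (Glrb 0.018). With the replicate block, the sign turned in RYGB against sham (Slc6a9 -0.057), RYGB against BWM (Glra4 0.28), sham against saline (Glrb 0.031), RYGB against saline (Glrb 0.12, Slc6a9 -0.13), liraglutide against saline (Glra2 -0.062), PYY3-36 + liraglutide against saline (Glrb 0.047). With sham in place of saline, the sign turned in PYY3-36 against saline (Glra2 0.053, Slc6a5 0.34), PYY3-36 + liraglutide against saline (Glrb 0.030). Within batch A, the sign turned in RYGB against sham (Slc6a9 -0.038), BWM against sham (Glra1 -0.058), RYGB against BWM (Glra4 0.088), lean against sham (Glra1 -0.054, Glrb -0.022), sham against saline (Glrb 0.19), RYGB against saline (Glrb 0.19, Slc6a9 -0.16), PYY3-36 + liraglutide against saline (Glra2 -0.36, Glrb 0.10, Slc6a9 -0.086). Within batch B, the sign turned in RYGB against sham (Glra4 -0.43, Glrb -0.092), sham against saline (Glra4 0.16, Slc6a9 0.032), RYGB against saline (Glra4 -0.27, Slc6a5 -0.12).
With 1 library left out, the sign turned in some fits, over ranges of -0.10 to 0.093 for Glrb between RYGB and sham, -0.19 to 0.44 for Glra1, -0.11 to 0.13 for Glra2 and -0.41 to 0.41 for Glra4 between BWM and sham, and -0.17 to 0.65 for Glra4 between RYGB and BWM. Between lean and sham the ranges were -0.085 to 0.45 (Glra1) and -0.14 to 0.14 (Glrb), and between sham and saline -0.24 to 0.012 (Glra4), -0.13 to 0.022 (Glrb) and -0.086 to 0.048 (Slc6a9). Against saline they were -0.13 to 0.036 for Glrb in RYGB, -0.59 to 0.32 and -0.52 to 0.30 for Glra3 and Glra4 in BWM, -0.16 to 0.65 and -0.50 to 0.080 for Glra1 and Slc6a5 in PYY3-36, -0.096 to 0.14 for Glra2 in liraglutide, and -0.099 to 0.051 and -0.035 to 0.078 for Glrb and Slc6a9 in PYY3-36 + liraglutide animals. For the differences between batches they were -0.43 to 1.31 (Glra3) and -0.22 to 0.071 (Glrb) for RYGB against sham, -0.052 to 0.82 (Glra1) and -0.00080 to 0.33 (Slc6a9) for sham against saline, and -0.32 to 0.083 (Glrb) for PYY3-36 + liraglutide against saline. Depth limits Glra3 most, with 0 to 24 counts in sham libraries.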

Other observations

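The ratio of the summed alpha-subunit level to the Glrb level, both in CPM per kilobase, was 0.303 ± 0.122 (SD, n = 65) over all libraries. It was 0.199 ± 0.0707 (n = 11) in sham and 0.362 ± 0.139 (n = 14) in RYGB animals, with ranges of 0.105 to 0.330 and 0.0539 to 0.610, and the lowest RYGB value was below every sham value. Means of the other groups lay between these, from 0.246 in PYY3-36 to 0.353 in PYY3-36 + liraglutide animals. The highest Slc6a5 level of all 65 libraries, 13.97 CPM, was in liraglutide replicate 1, and the other 4 liraglutide libraries ran from 3.21 to 9.78 CPM.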
